A study of Mus musculus with 17 samples.

Results

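A set of 10 genes of the alveolar type 2 cell and its surfactant was followed through a mouse lung RNA-seq experiment on perfluorooctanoic acid (PFOA), a long-chain perfluoroalkyl acid. They are Sftpb, Sftpc, Sftpa1, Sftpd, Abca3, Lamp3, Lpcat1, Slc34a2, Napsa and Etv5. They were chosen by name for their known role in surfactant or in the type 2 cell, and all 10 were among the 31245 genes of the expression table and the 26946 genes that were tested.

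Alveolar type 2 cells are the cuboidal epithelial cells of the air sac that make, store, secrete and recycle pulmonary surfactant, the phospholipid and protein film that keeps alveoli from collapsing. Phosphatidylcholine is assembled in the endoplasmic reticulum, moved into lamellar bodies by an ABC transporter, packed there with the small hydrophobic proteins SP-B and SP-C, and released by exocytosis, while the collectins SP-A and SP-D bind lipid and microbes in the airspace. PFOA is itself a surface-active, fatty acid-like molecule and an activator of PPARα, a nuclear receptor that controls fatty acid oxidation genes.

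Wild-type mice (WT), mice labelled as null for PPARα (KO) and mice labelled as carrying human PPARα (KI) drank 0.5% sucrose water without PFOA (vehicle) or with 6.2 μg/mL PFOA for 14 weeks, on a custom diet given from 6 weeks of age. Total RNA from frozen lung gave 17 libraries, 1 per animal. The groups held 2 WT vehicle mice (1 female, 1 male), 3 WT PFOA mice (1 female, 2 males), 3 KO vehicle and 3 KO PFOA mice (all female), and 3 KI vehicle and 3 KI PFOA mice (2 females and 1 male in each). WT animals were purchased, whereas KO and KI animals were bred from pairs described as null for mouse PPARα and heterozygous for the human gene, so genotype and source cannot be told apart. Libraries are named here by group and animal number.

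Total counts per library ran from 4116118 to 9237356, with a median of 7524757, so 3 counts corresponded to 0.325 to 0.729 counts per 1000000 (CPM). Levels below are CPM after scaling by edgeR's TMM factors. Gene-level counts of mouse Ppara do not check the genotype labels: they were 4.39 to 7.21 CPM in WT, 8.82 to 11.8 CPM in the libraries labelled KO and 9.08 to 20.4 CPM in those labelled KI, and genotypes were taken from the labels. A pair of vehicle libraries, WT vehicle 122 and KO vehicle 137, stood apart: 65.3% and 61.3% of their counts fell on protein-coding genes against 74.4% to 80.4% in the other 15, and 16.9% and 20.3% fell on rRNA genes against 6.73% to 12.3%. The exposure results over the set are therefore given with and without them. All 3 KO PFOA libraries shared an i5 index that was absent from the KO vehicle libraries, so in KO the index and PFOA cannot be told apart. Markers of the other main lung cell types, fixed as lists, were detected in every library. Cardiac muscle markers (10 genes) were present too, with a summed level of 326 CPM in a KO vehicle library to 7909.6 CPM in a KI vehicle library.

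Promoter sequence from RefSeq (assembly GRCm38.p6, 250 bases before to 50 after the annotated start) was at hand for 7 members and is shown for 4 of them, because these 4 include the members furthest apart in the libraries that stand out below and show windows with and without the letters searched for. Capitals mark exact matches, on either strand, to CTCAAG (a core of sites for NKX2-1, the lung epithelial homeobox factor), TGTTTAC (forkhead factors such as FOXA2) and AGGTCA (the nuclear receptor half-site that PPARα also reads). Each is written 5′ to 3′ on the gene's own strand.

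Sftpb, chr6:72304360-72304659, plus strand: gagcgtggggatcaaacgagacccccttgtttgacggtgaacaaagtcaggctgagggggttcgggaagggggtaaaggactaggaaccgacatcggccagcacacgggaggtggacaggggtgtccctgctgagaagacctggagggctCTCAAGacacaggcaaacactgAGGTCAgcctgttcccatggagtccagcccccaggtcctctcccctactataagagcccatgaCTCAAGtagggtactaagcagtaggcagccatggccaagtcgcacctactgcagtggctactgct

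Sftpa1, chr14:41131538-41131837, plus strand: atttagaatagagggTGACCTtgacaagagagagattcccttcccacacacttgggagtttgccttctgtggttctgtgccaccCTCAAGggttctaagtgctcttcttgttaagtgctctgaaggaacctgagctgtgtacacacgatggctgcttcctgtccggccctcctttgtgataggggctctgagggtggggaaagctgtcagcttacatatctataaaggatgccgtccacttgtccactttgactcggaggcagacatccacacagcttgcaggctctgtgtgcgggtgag

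Lamp3, chr16:19706316-19706615, minus strand: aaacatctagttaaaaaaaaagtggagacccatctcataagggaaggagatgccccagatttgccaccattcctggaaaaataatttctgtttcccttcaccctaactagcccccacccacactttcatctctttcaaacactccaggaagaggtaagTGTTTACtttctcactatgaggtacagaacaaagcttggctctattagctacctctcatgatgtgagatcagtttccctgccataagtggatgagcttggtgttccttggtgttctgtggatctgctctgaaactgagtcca

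Abca3, chr17:24351773-24352072, plus strand: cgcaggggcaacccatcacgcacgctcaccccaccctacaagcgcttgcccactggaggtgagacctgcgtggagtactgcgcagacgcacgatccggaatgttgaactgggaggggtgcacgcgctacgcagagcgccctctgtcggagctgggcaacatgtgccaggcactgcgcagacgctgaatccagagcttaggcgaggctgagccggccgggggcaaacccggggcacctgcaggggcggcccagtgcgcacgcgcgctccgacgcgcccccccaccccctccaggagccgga

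The Sftpb window held CTCAAG at -100 to -95 and at -15 to -10 from the start site and AGGTCA at -78 to -73. In the Sftpa1 window CTCAAG lay at -166 to -161, and AGGTCA was read on the opposite strand at -235 to -230, where it appears as TGACCT. Lamp3 held TGTTTAC at -92 to -86, and the Abca3 window held none of the 3. Of 32851 mouse promoter windows of this length, 15.9% held CTCAAG, 3.65% held TGTTTAC and 16.3% held AGGTCA, so these matches are descriptions of the letters and not evidence of binding.

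On mm10, Sftpa1 (chr14:41131782-41136452, plus strand), Sftpd (chr14:41172214-41185149, minus strand) and Sftpc (chr14:70520949-70524081, minus strand) share chromosome 14, and Lamp3 (chr16:19653378-19706375) and Etv5 (chr16:22381309-22439719), both on the minus strand, share chromosome 16. The others lie apart on the plus strand: Sftpb at chr6:72304610-72314371, Abca3 at chr17:24351950-24410201, Lpcat1 at chr13:73467197-73516422, Slc34a2 at chr5:53038081-53071664 and Napsa at chr7:44572380-44586862.

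The members spanned a wide range of levels. Divided by exon length in kilobases (RPKM, from CPM) and averaged over the 17 libraries, Sftpc, which encodes the hydrophobic protein SP-C, stood at 2408 ± 733 RPKM (SD, n = 17) and ranked 13 of 26032 genes. Sftpb, encoding SP-B, stood at 909 ± 146 RPKM (rank 25), and Sftpa1, encoding the collectin SP-A, at 582 ± 147 RPKM (rank 41). Slc34a2, the sodium-dependent phosphate transporter of the type 2 cell, followed at 215 ± 63.4 RPKM, ahead of Sftpd, encoding the collectin SP-D, at 158 ± 33.9 RPKM. Transcripts of Lamp3, Abca3 and Lpcat1 were lower. Lamp3, a lamellar body membrane protein, stood at 75.8 ± 26.6 RPKM, Abca3, the lamellar body lipid transporter, at 52.4 ± 6.81 RPKM, and Lpcat1, the acyltransferase that makes dipalmitoyl phosphatidylcholine, at 47.8 ± 10.5 RPKM. The transcription factor Etv5 (25.6 ± 5.36 RPKM) and Napsa, the aspartic protease that cleaves pro-SP-B (23.7 ± 8.26 RPKM), were the lowest of the 10.

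The ranges over libraries overlapped for all 9 pairs of neighbours in this order. Slc34a2 exceeded Sftpd in 16 of 17 libraries, Lamp3 exceeded Abca3 in 15, Abca3 exceeded Lpcat1 in 14 and Etv5 exceeded Napsa in only 11. The other 5 pairs kept their order in 17 of 17.

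The libraries that stood apart carried the lowest summed levels of the members and are called the 2 low libraries from here on. The 10 genes together took 5183 CPM in WT vehicle 122 and 3540.3 CPM in KO vehicle 137, against 7100.3 to 10946 CPM in the other 15, of which the highest was WT vehicle 107. The shortfall was unequal between genes. In WT vehicle 122, Lamp3 stood at 21.6% of the mean of the other 15 libraries, Napsa at 31.0%, Sftpc at 34.3% and Slc34a2 at 40.2%, whereas Sftpd stood at 88.1%, Abca3 at 92.2% and Sftpb at 95.04%. In KO vehicle 137 the corresponding levels were 22.95% for Lamp3, 26.2% for Napsa, 24.9% for Sftpc and 38.3% for Slc34a2, and 48.2% for Sftpd, 62.2% for Abca3 and 54.0% for Sftpb. Lpcat1, Sftpa1 and Etv5 lay between these sets in WT vehicle 122, at 52.9%, 53.2% and 58.2%. In KO vehicle 137 they stood at 49.8%, 36.9% and 56.4%, among the other members and not between the sets.

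The 2 libraries thus ordered the members alike: the log2 ratios of the 10 genes to the other 15 libraries correlated with Pearson's r = 0.90 and Spearman's rho = 0.85 across genes, which share the same 15 libraries as reference and are not independent replicates. All 10 members were lower in KO vehicle 137 than in any of the other 15 libraries, as were 50.7% of the 10560 genes that averaged 10 CPM or more. In WT vehicle 122 this held for 7 of 10 members (not for Sftpd, Abca3 and Sftpb) and for 21.8% of those genes.

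**Figure D1:**
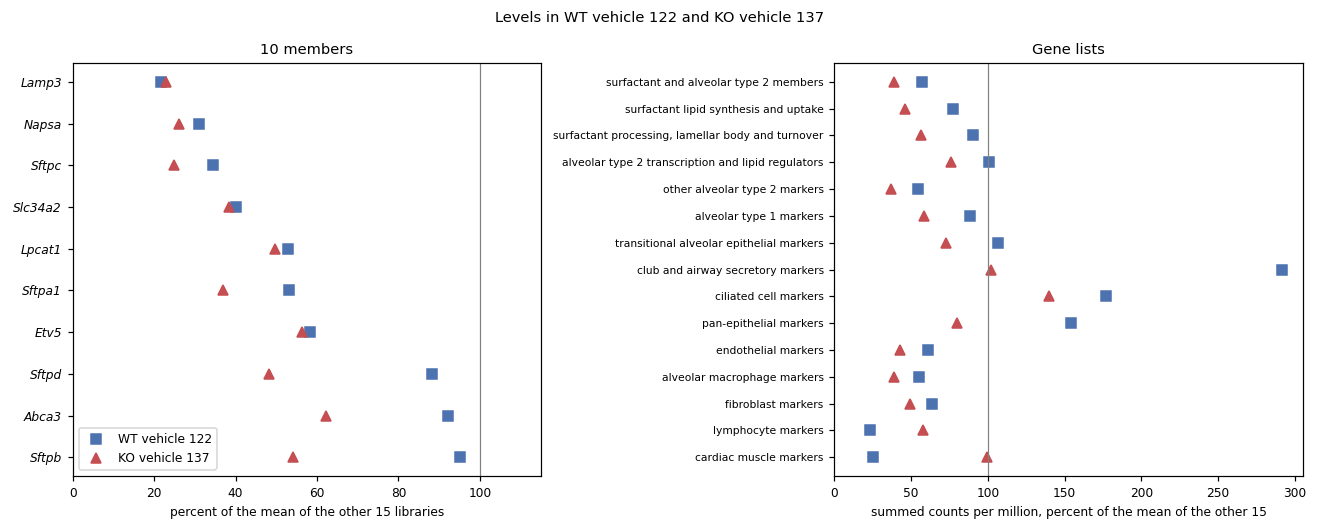
Level of each member in WT vehicle 122 and KO vehicle 137 as a percent of its mean over the other 15 libraries (left, horizontal axis), with the summed level of each marker list on the same scale (right). Lamp3 is lowest at 21.6% and 22.95%, while Sftpb, Abca3 and Sftpd stand at 88.1% to 95.04% in WT vehicle 122 but at 48.2% to 62.2% in KO vehicle 137.

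Markers of other cell types did not move as 1 block in these libraries. As a ratio to the mean of the other 15, the summed level of 25 other type 2 markers was 0.55 in WT vehicle 122 and 0.37 in KO vehicle 137, that of 10 endothelial markers 0.61 and 0.43, that of 10 fibroblast markers 0.63 and 0.49, and that of 12 alveolar macrophage markers 0.55 and 0.39. Type 1 cell markers (16 genes) stood at 0.88 and 0.58, and 10 lymphocyte markers at 0.23 and 0.58. Airway markers were not low: 15 club and secretory markers summed to 32198 CPM in WT vehicle 122, against 6510 to 15039 CPM in the other 15 libraries, and 10 ciliated cell markers stood at 1.77 and 1.40 times the others. The part of tissue composition and of RNA quality in the low member levels was not tested, and in bulk tissue fewer type 2 cells and less RNA per cell cannot be told apart.

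Outside these 2 libraries the members varied moderately. Over the other 15, the coefficient of variation was smallest for Abca3 (9.2%) and Sftpb (11.6%), and largest for Slc34a2 (19.9%), Lamp3 (19.9%) and Napsa (22.9%). Abca3 and Sftpb were also the members closest to the other libraries in WT vehicle 122.

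Whether PFOA changed these genes was asked within each genotype, over the 3 genotypes together, and as a difference in effect between genotypes. A gene was called when its fold change exceeded 2 with an adjusted p under 0.2 by the quasi-likelihood test of edgeR, adjusted after Benjamini and Hochberg over all genes tested. No member was called in any exposure comparison, and neither was any other gene: 0% of all genes were called within WT, KO or KI or over the 3 genotypes. With DESeq2 on the same genes, its own filters off, again no member was called in these 4 comparisons, and 24, 68, 1 and 26 genes of all tested were. With its default filters the counts were 74, 72, 1 and 22, again without a member. At an unadjusted p under 0.05 in edgeR, 0 members passed in WT (7.35% of all genes) and 1, Sftpd, in KO (9.79%), in KI (2.59%) and over the 3 genotypes (8.27%), each time upwards, as did 3.74%, 1.47% and 3.8% of all genes.

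**Figure D2:**
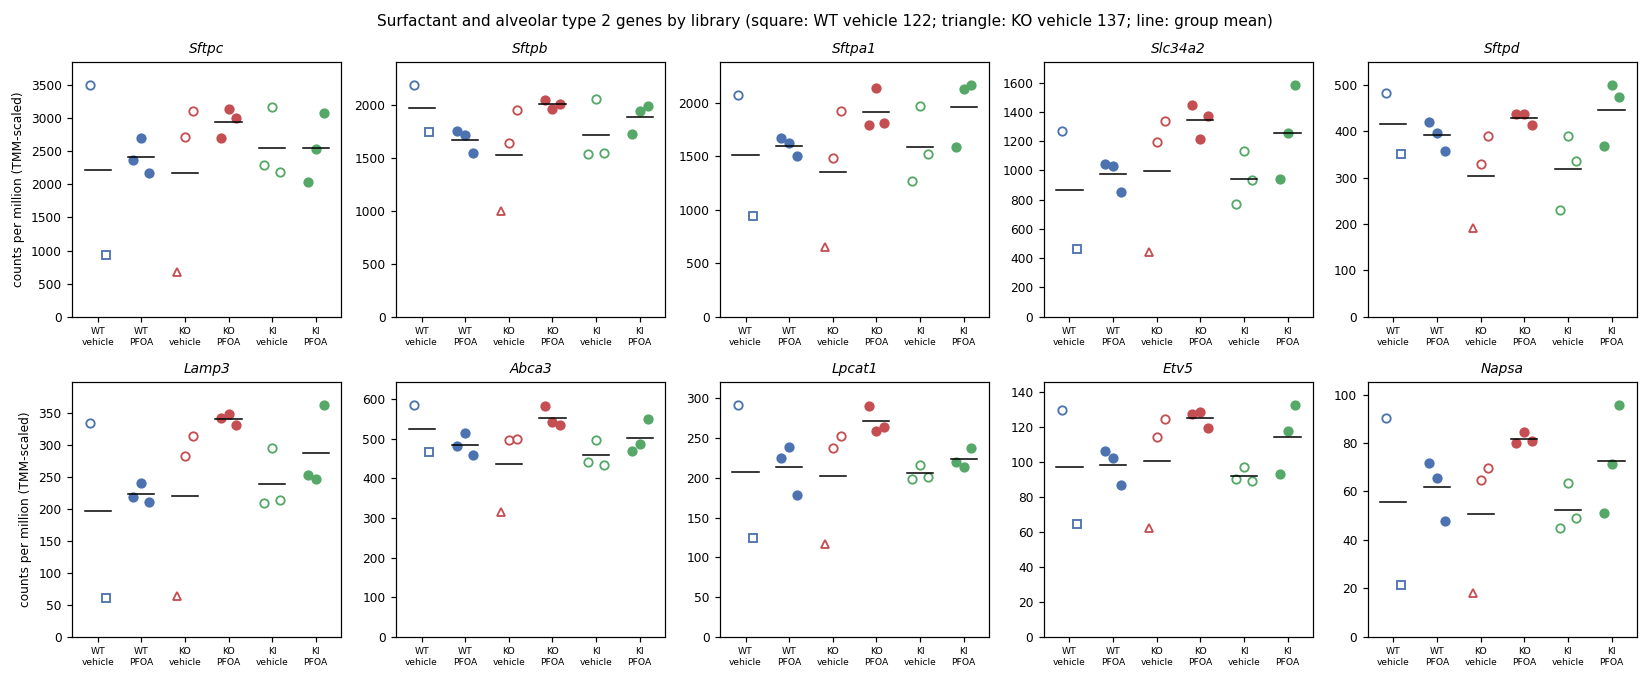
Level of each member in every library, in TMM-scaled CPM (vertical axis, starting at 0), by genotype and exposure (horizontal axis), with a line at each group mean. The square marks WT vehicle 122 and the triangle KO vehicle 137, which lie at or near the bottom of most panels.

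The hydrophobic surfactant proteins are the core of the film. Sftpc read 3501 and 932 CPM in the 2 WT vehicle libraries (107 and 122, in this order throughout) and 2374, 2699.9 and 2166 CPM in the WT PFOA libraries 50, 56 and 65. In KO it read 677, 2709 and 3112 CPM with vehicle (137, 145, 149) and 3005, 2702 and 3135 CPM with PFOA (52, 154, 155). In KI it read 2298, 3167 and 2189 CPM with vehicle (102, 116, 135) and 2536, 3083 and 2040.3 CPM with PFOA (57, 80, 139). The groups overlapped in all 3 genotypes. The log2 fold change was 0.12 ± 0.48 (SE) in WT with a 95% interval of -0.89 to 1.13, 0.44 ± 0.43 in KO and 0.00 ± 0.43 in KI, with edgeR adjusted p of 0.972, 0.721 and 1. Without the 2 low libraries these became -0.53, 0.02 and -0.00 in WT, KO and KI.

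Sftpb was steadier. It read 2193 and 1753 CPM with vehicle and 1756, 1719.7 and 1554 CPM with PFOA in WT, and 997, 1644 and 1954 CPM against 2012, 2054 and 1962 CPM in KO. In KI the vehicle values were 1544, 2062 and 1547 CPM and the PFOA values 1946, 1994 and 1730.2 CPM. Every KO PFOA library lay above every KO vehicle library, while the WT and KI groups overlapped. The log2 fold changes were -0.23 ± 0.24 in WT, 0.39 ± 0.21 in KO and 0.14 ± 0.21 in KI, none of which passed.

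Of the collectins, which opsonise microbes and help organise and clear surfactant, Sftpd gave the smallest unadjusted p of the members in KO, in KI and over the 3 genotypes. It read 483 and 350.5 CPM in WT vehicle and 419.8, 396 and 359 CPM in WT PFOA. The KO values were 192, 330.3 and 391 CPM with vehicle and 415, 437 and 438 CPM with PFOA, and the KI values 230.5, 389 and 336 CPM and 500.1, 474 and 368 CPM. The KO groups did not overlap, and in KI 2 of 3 PFOA libraries lay above all 3 vehicle libraries. The log2 fold change was 0.50 ± 0.23 in KO (95% interval 0.02 to 0.98, edgeR adjusted p = 0.503) and 0.49 ± 0.23 in KI (adjusted p = 1), against -0.09 ± 0.25 in WT. With the 2 low libraries left out, the KO value fell to 0.25 ± 0.17, with an interval of -0.12 to 0.62 that includes 0, and the KI value was 0.48 ± 0.16 with an edgeR adjusted p of 0.985. Over the 3 genotypes it was 0.32 ± 0.14 (edgeR adjusted p = 0.571), and 0.22 without those libraries.

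Sftpa1 ranged from 655.6 CPM in KO vehicle 137 to 2167 CPM in KI PFOA 80. Its log2 fold change with PFOA was 0.09 ± 0.35 in WT, 0.50 ± 0.31 in KO and 0.30 ± 0.31 in KI, and the groups overlapped in each genotype.

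Lamp3 and Abca3 belong to the lamellar body, the storage organelle of surfactant. Lamp3, the member furthest below the others in both low libraries, read 334 and 60.4 CPM in WT vehicle and 218, 241 and 210.1 CPM in WT PFOA. In KO it read 64.3, 282 and 314 CPM with vehicle and 332, 342 and 347 CPM with PFOA, and in KI 209, 296 and 214 CPM and 247, 362 and 252 CPM. The KO PFOA libraries lay within a narrow band above all KO vehicle libraries, whereas the 2 WT vehicle libraries lay on either side of all 3 WT PFOA libraries. The log2 fold change was 0.18 ± 0.52 in WT (95% interval -0.91 to 1.27), 0.62 ± 0.46 in KO and 0.26 ± 0.46 in KI. In WT the sign was set by 1 vehicle library: it was -0.57 without WT vehicle 122 and 1.89 without WT vehicle 107, where Lamp3 passed with an edgeR adjusted p of 0.106. Napsa passed in the same setting, at 1.54 with an adjusted p of 0.151, and 1672 genes in all were called there.

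Abca3 was the least variable member. It read 585 and 465.6 CPM in WT vehicle, 481, 515 and 458 CPM in WT PFOA, 314, 497 and 500.5 CPM in KO vehicle and 535, 582 and 541 CPM in KO PFOA, and its KI values ran from 434 to 551 CPM. Its log2 fold change was -0.12 ± 0.19 in WT, 0.34 ± 0.17 in KO and 0.13 ± 0.17 in KI, which did not pass, and the KO groups did not overlap. An opposite-strand transcript, D330041H03Rik, touches its exons, and reads of the 2 could not be told apart if strand was not used in counting, which the sources used here do not state.

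The 4 remaining members work in lipid assembly, phosphate uptake, protein processing and transcription. Lpcat1 ranged from 117 to 291 CPM, Slc34a2 from 444 to 1583 CPM, Etv5 from 62.4 to 133 CPM, each with its minimum in KO vehicle 137. Napsa read 17.97, 64.9 and 69.7 CPM in KO vehicle and 80.7, 80.0 and 84.5 CPM in KO PFOA, and 44.7, 63.6 and 49.2 CPM and 71.2, 95.6 and 51.1 CPM in the KI groups. Napsa had the largest log2 fold change of the members in KO, at 0.67 ± 0.41, and over the 3 genotypes, at 0.44 ± 0.24. Its exons too are touched by an opposite-strand gene, Gm15396. In KO the log2 fold change was 0.42 ± 0.26 for Lpcat1, 0.43 ± 0.35 for Slc34a2 and 0.31 ± 0.23 for Etv5. None of these passed.

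Counted over the set, all 10 members had a log2 fold change above 0 in KO, with a median of 0.44, where 46.9% of all genes tested lay above 0 and their median was -0.03. Every PFOA library exceeded every vehicle library for 6 of 10 members in KO (Sftpb, Sftpd, Abca3, Lamp3, Lpcat1 and Napsa), as it did for 6.82% of all genes, and no member had every PFOA library lower (5.99% of all genes, and 10.3% without KO vehicle 137). Leaving out a vehicle library cannot undo such a separation, so the count of 6 members without KO vehicle 137, beside 11.8% of all genes, adds nothing to it. Without both low libraries the median log2 fold change was 0.15, with a range of 0.02 for Sftpc to 0.28 for Napsa and edgeR adjusted p of 1, where 51.7% of all genes were above 0. Other markers stood higher with PFOA in KO as well: 12 of 12 alveolar macrophage markers had a log2 fold change above 0, with a summed level of 94.4 to 196 CPM with vehicle and 274 to 319 CPM with PFOA, and 10 of 10 lymphocyte markers did, with 43.1 to 63.3 CPM and 85.6 to 149 CPM. So did 13 of 16 type 1 cell markers (median 0.20), 10 of 10 fibroblast markers (0.27) and 9 of 10 endothelial markers (0.27). The summed type 1 level nevertheless overlapped between the KO groups (4201 to 7745 CPM and 6655 to 7232 CPM). Airway markers went the other way: 13 of 15 club and secretory markers (median -0.11) and 7 of 10 ciliated markers (-0.35) were below 0. Of 8 pan-epithelial markers, 5 were above 0 (median 0.03). When the 2 low libraries were left out, the markers above 0 were 10 of 12 for macrophages, 10 of 10 for lymphocytes, 6 of 16 for type 1 cells, 6 of 10 for fibroblasts and 2 of 10 for endothelium. The part of cell composition in the KO values was not tested.

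In WT, 7 of 10 members were above 0 (53.3% of all genes), with a median of 0.06 beside 0.04 over all genes, and no member separated the groups, against 11.6% of genes with every PFOA library higher and 10.9% with every PFOA library lower. Without the 2 low libraries all 10 lay below 0, where 52.8% of all genes were above, from -0.27 for Abca3 to -0.58 for Lamp3, and 5 had an unadjusted p under 0.05, against 1.4% of all genes in that direction, with adjusted p of 1. That setting left a single vehicle library, WT vehicle 107, whose variation was assumed to equal that of the other groups. All 10 members were higher in it than in every WT PFOA library, as were 25.3% of all genes. Each sex in WT held 1 vehicle library, so the comparison within sexes split in the same place and adds nothing to this. All 10 members were necessarily lower in the PFOA female than in the vehicle female (107), with a median log2 ratio of -0.31. In the PFOA males 9 of 10 were higher than in the vehicle male (122), with a median of 0.74. In WT 10 of 10 ciliated markers (median -1.04) and 8 of 8 pan-epithelial markers (-0.56) were below 0. There 10 of 10 lymphocyte markers (0.97) and 10 of 10 cardiac markers (1.92) were above 0. The cardiac markers summed to 813 and 557 CPM with vehicle and 382, 605 and 4540 CPM with PFOA, so only WT PFOA 65 lay above both vehicle libraries. Ciliated markers summed to 429 and 772 CPM against 275, 315 and 392 CPM, and pan-epithelial markers to 689 and 864 CPM against 490, 541 and 520 CPM. Lymphocyte markers summed to 34.6 and 17.2 CPM against 58.7, 44.9 and 49.7 CPM. The part of cell composition in the WT values was not tested.

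In KI the 10 estimates lay between 0.00 and 0.49, with a median of 0.28, where 50.8% of all genes were above 0 and their median was 0.0052. No member separated the KI groups in either direction, against 4.45% and 3.78% of all genes. The 2 low libraries are not in this comparison, but the standard errors were smaller without them, and 4 of 10 members then had an unadjusted p under 0.05 upwards, against 2.74% of all genes, again with no call. Within KI, 9 of 10 members were higher with PFOA among females (median log2 ratio 0.17) and 10 of 10 in the single pair of males (0.36). In the same comparison 15 of 16 type 1 markers (median 0.21) and 9 of 12 alveolar macrophage markers (0.29) were above 0, and 12 of 15 club and secretory markers (-0.16) and 10 of 10 cardiac markers (-0.57) were below 0, and the part of cell composition was not tested. Over the 3 genotypes the members' median was 0.27 beside -0.01 over all genes, and the estimates ran from -0.12 for Sftpc to 0.22 for Sftpd without the 2 low libraries, and from 0.20 to 0.73 without WT vehicle 107.

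**Figure D3:**
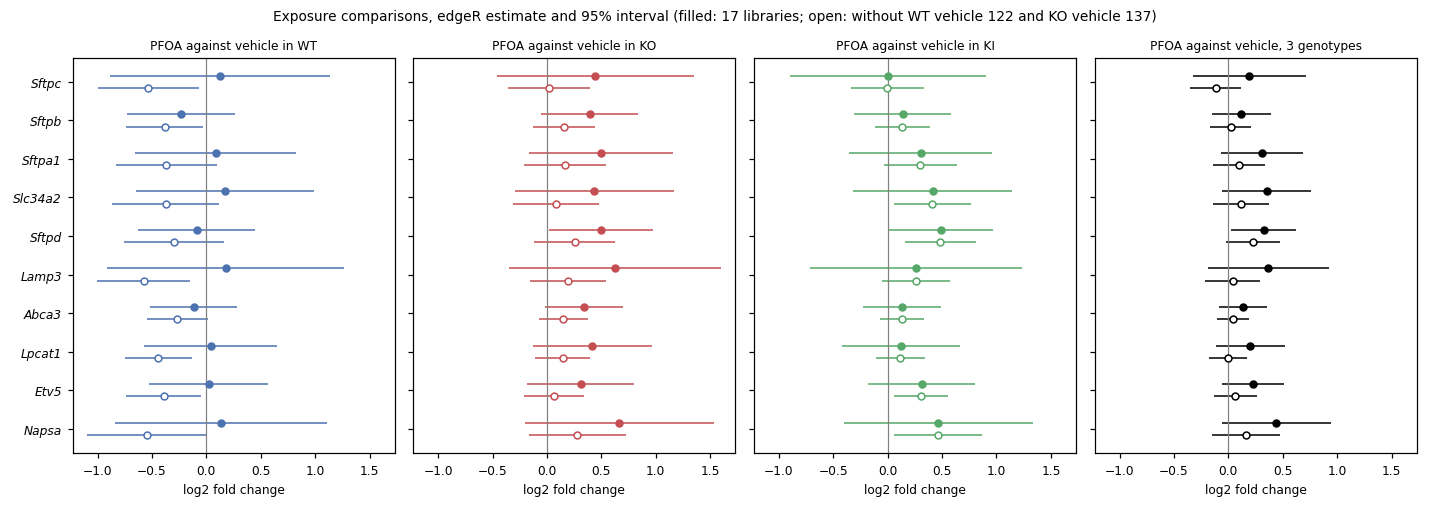
Log2 fold change of each member with PFOA (horizontal axis) in WT, KO, KI and over the 3 genotypes, as edgeR estimates with 95% intervals, from all 17 libraries (filled) and without WT vehicle 122 and KO vehicle 137 (open). Leaving the 2 libraries out moves every WT estimate below 0 and draws the KO estimates to between 0.02 and 0.28, while the KI estimates barely move.

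Whether the response differed between genotypes was tested directly. The PFOA effect in KO minus that in WT was 0.26 to 0.63 on the log2 scale over the 10 members, with a median of 0.43, and the effect in KI minus that in WT was -0.12 to 0.58, with a median of 0.25. Both share the WT libraries. In both, edgeR and DESeq2 called 0 members, no member had an unadjusted p under 0.05 in edgeR (7.46% and 4.58% of all genes had), and 0% of all genes were called. Without the 2 low libraries the differences were 0.42 to 0.83 and 0.40 to 1.01, and 6 and 9 members had an unadjusted p under 0.05 upwards, against 1.46% and 1.71% of all genes. Their lowest adjusted p were then 1 and 0.997, and WT vehicle 107 was the only WT vehicle library. Without WT vehicle 107, which left WT vehicle 122 alone, the differences turned: 7 of 10 members were below 0 in each, at medians of -0.34 and -0.56 and down to -1.26 and -1.63 for Lamp3, with no member called (lowest edgeR adjusted p 0.429 and 0.339). The sign of these differences for most members was thus set by which of the 2 WT vehicle libraries was kept.

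The genotypes were also compared over both exposures, again without a call among the members. KO minus WT ran from -0.13 to 0.41 on the log2 scale, with a median of 0.16 (0.42 without WT vehicle 107), in a comparison in which 2.36% of all genes were called. KI minus WT ran from -0.07 to 0.34, with a median of 0.09 and 1.37% of all genes called, and KI minus KO from -0.13 to 0.13, with 0.00742% of all genes called. With edgeR no member had an unadjusted p under 0.05 in these 3 comparisons, where 12.9%, 9.65% and 4.78% of all genes had, and DESeq2 called 0 members. The KO mice were all female, while WT and KI held both sexes, so sex and genotype cannot be fully told apart in comparisons with KO. The low libraries sit in WT and KO. Without them Lamp3 (0.38) and Slc34a2 (0.34) were higher in KO than in WT at an unadjusted p under 0.05 (7.67% of all genes), with edgeR adjusted p of 0.254 and 0.339. All 10 members were then below 0 in KI against KO, at -0.04 to -0.30, where 48.9% of all genes were above 0. Of these Lamp3 (-0.30), Lpcat1 (-0.29) and Etv5 (-0.25) had an unadjusted p under 0.05, as did 2.91% of all genes in that direction, with edgeR adjusted p of 0.661, 0.502 and 0.618.

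As an order of groups, KO PFOA had the highest mean for 8 of 10 members and KI PFOA for Sftpa1 and Sftpd, while KO vehicle had the lowest for 7. The highest group mean exceeded the lowest by 1.26 times for Abca3 and by up to 1.73 times for Lamp3. Most neighbouring groups in this order overlapped. Without the 2 low libraries WT vehicle, then a single library, took the highest place for 8 members and KI vehicle the lowest for 7.

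Surfactant lipid is made and recycled by a wider set of genes, and 4 further lists were read beside the members. With all 17 libraries, no gene in any of them was called with PFOA by edgeR in WT, KO, KI or over the 3 genotypes. Of 23 genes of lipid synthesis and uptake, 20 were above 0 in KO, 9 with an unadjusted p under 0.05 and a median of 0.33, against 3.74% of all genes at that p in that direction. In KI 18 of 23 were above 0, 2 of them at that p (1.47% of all genes), and in WT 14 of 23, none at that p upwards (3.12%). Of 21 genes of surfactant processing, lamellar bodies and turnover, 16 were above 0 in KO, 11 in KI and 9 in WT. Of 25 transcription factors and lipid regulators, 16, 9 and 9 were above 0, and of 25 other type 2 markers, 22, 18 and 11. At an unadjusted p under 0.05 these last 3 lists held 3, 4 and 2 genes that were higher and none that was lower in KO (6.06% of all genes were lower at that p). In WT they held 2, 0 and 0 genes that were higher and 0, 5 and 3 that were lower (4.23% of all genes), and in KI 1, 0 and 2 that were higher and 0, 0 and 1 that were lower (1.12%). KO vehicle 137 had the lowest summed level of the 17 libraries on all 4 lists. With both low libraries left out, genes above 0 in KO were 13 of 23 for lipid synthesis and uptake, 13 of 21 for processing, 12 of 25 for the regulators and 14 of 25 for the other markers, with 8, 1, 4 and 2 genes higher at that p (3.24% of all genes). DESeq2 called 2 genes of the 4 lists in KO (Mfsd2a and Scd1), 1 in KI (Mfsd2a) and 2 over the 3 genotypes (Mfsd2a and Bex2), and none in WT.

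Mfsd2a, which encodes a transporter of lysophosphatidylcholine into cells, had the smallest p of the lipid list in KO and KI. It read 3.46, 1.83 and 3.01 CPM in KO vehicle and 7.18, 9.48 and 9.12 CPM in KO PFOA. In KI it read 0.637, 3.05 and 1.97 CPM with vehicle and 6.74, 8.74 and 9.78 CPM with PFOA. The 0.637 CPM of KI vehicle 102 lay near the 0.484 CPM that 3 counts gave in that library. The groups did not overlap in KO or KI, as held in that direction for 6.82% and 4.45% of all genes. The 5 WT libraries ran from 3.55 to 7.53 CPM. The log2 fold change was 1.65 ± 0.38 in KO (edgeR adjusted p = 0.434) and 2.11 ± 0.39 in KI (adjusted p = 0.904). DESeq2 called it in both, with adjusted p of 0.139 and 0.0162, and edgeR called it in KI without KI vehicle 116, at 2.65 with an adjusted p of 0.175.

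Scd1, the stearoyl-CoA desaturase that makes monounsaturated fatty acids, lies outside the rule for named genes and was singled out after its values were seen. It read 228, 537 and 746 CPM in KO vehicle and 1637, 1385 and 1400.0 CPM in KO PFOA. In KI it read 798, 927 and 668 CPM with vehicle and 1224, 1357 and 1377 CPM with PFOA, groups that did not overlap either. The WT groups overlapped, at 1069 and 307 CPM with vehicle and 952, 745 and 1090 CPM with PFOA. DESeq2 called it in KO at a log2 fold change of 1.52 with an adjusted p of 0.139. Without the 2 low libraries it was the 1 gene that edgeR called in KO (0.00394% of those tested), at 1.201 ± 0.18 with an adjusted p of 0.110.

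Abca1, which exports cholesterol and phospholipid, was the processing gene with the smallest p in WT and KI and over the 3 genotypes. It read 228 and 190.5 CPM in WT vehicle and 465, 355 and 303 CPM in WT PFOA. Those groups did not overlap, as held in that direction for 11.6% of all genes. The KI groups overlapped, at 176, 189 and 167 CPM with vehicle and 402, 307 and 163 CPM with PFOA. The KO groups did not (6.82% of all genes), at 85.0, 139 and 143 CPM against 186, 214 and 177 CPM. The Abca1 log2 fold change over the 3 genotypes was 0.73 ± 0.15 with an edgeR adjusted p of 0.288. Srebf1, which encodes the sterol and fatty acid synthesis regulator SREBP1, stood at 0.30 ± 0.07 over the 3 genotypes (adjusted p = 0.385), and Acaca, acetyl-CoA carboxylase, at 0.41 ± 0.10 (adjusted p = 0.385). Among the genes with the smallest p of their list, some lay below 0 in WT or KI. Foxa2, a forkhead factor of lung epithelium, stood at -0.84 ± 0.20 in WT (adjusted p = 0.445), Wfdc2 at -0.78 ± 0.24 in WT (adjusted p = 0.482) and Bex2 at -1.30 ± 0.50 in KI (adjusted p = 1). Foxa2 and Wfdc2 were higher in WT vehicle 122 (68.1 and 257 CPM) than in the other WT vehicle library (37.3 and 147 CPM). Without the 2 low libraries their WT values shrank to -0.34 and -0.32, in a fit with a single WT vehicle library. Itih4 (0.68 ± 0.22, adjusted p = 0.473) and Csf2rb, the β chain of the GM-CSF receptor through which macrophages clear surfactant (0.64 ± 0.23, adjusted p = 0.477), had the smallest p of their lists in KO.

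Leaving out single libraries also gave edgeR calls for PFOA in these lists. Without WT vehicle 107, WT vehicle 122 was the only WT vehicle library. In WT vehicle 122, 65.3% of counts fell on protein-coding genes and 16.9% on rRNA genes. The list genes called in WT in this setting, beside many other genes, are therefore given by log2 value only. Abcg1 (1.76), Scd1 (1.60), Cldn18 (1.31) and Hc (1.07) were higher with PFOA, and Foxa2 (-1.21), Wfdc2 (-1.12) and Foxa1 (-1.04) were lower. Of these, Abcg1, Cldn18, Hc and Foxa1 lie outside the rule for named genes and were named after their values were seen. In the same setting Scd1 was called over the 3 genotypes (1.22). Foxa2 was called for the effects in KO and in KI minus WT (1.11 and 1.16) and Mfsd2a for the effect in KI minus WT (2.58). Many other genes were called for both differences. Bex2 was called over the 3 genotypes without KI PFOA 139 (-1.21, adjusted p = 0.176).

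With edgeR and all 17 libraries, calls in these lists came only from the genotype comparisons. Chil1, which encodes the chitinase-like protein also known as YKL-40 or BRP-39, read 14.4 to 30.1 CPM in the 5 WT libraries and 104 to 155 CPM in the 6 KI libraries. In KO it read 11.1, 100.05 and 129 CPM with vehicle and 245, 261 and 142 CPM with PFOA, so that KO vehicle 137 alone of the KO libraries was not above the WT range. It was higher than in WT by 2.72 ± 0.42 on the log2 scale in KO (edgeR adjusted p = 0.000808) and by 2.67 ± 0.42 in KI (adjusted p = 0.00120), and was called in 29 of 29 alternatives in each. Pgc, the progastricsin precursor of a type 2 cell protease, was listed at 0 in 3 WT libraries and at 0.26 and 0.27 CPM in the others, all under 3 counts, against 0.46 to 1.196 CPM in KO and 0.51 to 1.53 CPM in KI, themselves only a few counts, and was called in both comparisons (edgeR adjusted p = 0.0606 and 0.0561). Cebpd, encoding C/EBPδ, was lower in KO than in WT by -1.06 ± 0.26 on the log2 scale (adjusted p = 0.0337) and lost that call without KO vehicle 137, without KO vehicle 145, without WT PFOA 65, without both low libraries (-0.996) and when the i5 index was a covariate. Both genotypes were compared with the same WT libraries, which differ from them in source.

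**Figure D4:**
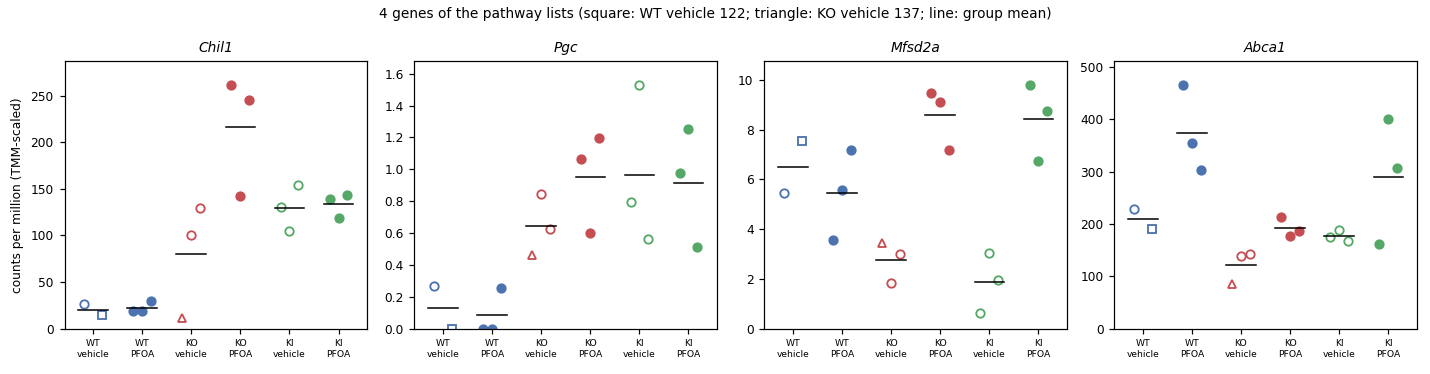
Levels of Chil1, Pgc, Mfsd2a and Abca1 in every library, in TMM-scaled CPM (vertical axis, starting at 0), by genotype and exposure, with a line at each group mean. Chil1 is at 14.4 to 30.1 CPM in WT and at 100 CPM or more in every KO and KI library except KO vehicle 137, and Mfsd2a with PFOA lies above vehicle in every KO and KI library.

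The members moved together from library to library. Each member's log2 CPM correlated with the mean of the other 9 (standardised) at Pearson's r of 0.81 for Sftpd to 0.98 for Napsa over the 17 libraries, and at 0.76 to 0.96 over the 15 that remain without WT vehicle 122 and KO vehicle 137. Of the 10560 genes that averaged 10 CPM or more, the genes outside the set most like the mean of the members over the 17 libraries were Dram1 (r = 0.975), Anxa5 (0.965), Sgpp2 (0.965), Abhd2 (0.964) and Lyz2 (0.963). With group means subtracted they were Cldn18 (0.988), Mme (0.983), Dram1 (0.981), Hsd11b1 (0.980) and Colec12 (0.978). Over the 15 libraries, an alternative chosen after the data were seen, Dram1 (0.911), Lyz2 (0.906) and Sgpp2 (0.884) stayed among the 5 nearest. With group means subtracted there too, the members correlated at only 0.62 for Lpcat1 to 0.93 for Napsa. The 5 nearest were then Enpp5 (0.921), Zdhhc3 (0.913), Dram1 (0.908), Cldn18 (0.905) and Derl2 (0.896), without Lyz2 and Sgpp2. Dram1, Lyz2 and Cldn18 are also on the list of other type 2 markers. These likenesses share depth, scaling and the low libraries and carry no test.

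**Figure D5:**
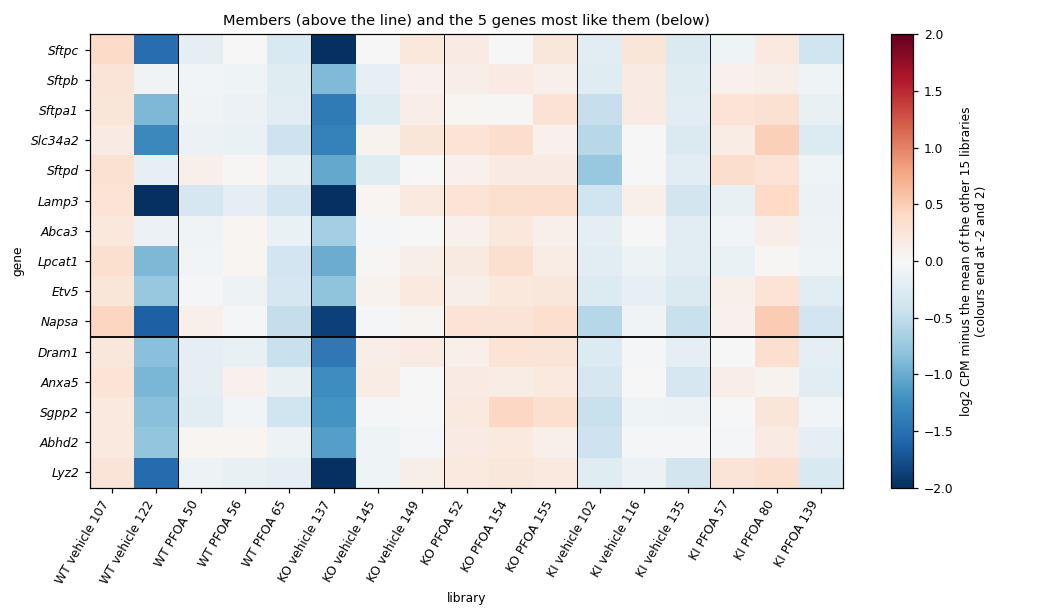
Log2 CPM of the 10 members (above the line) and of the 5 genes most like them (below) in each of the 17 libraries, as a difference from the gene's mean over the 15 libraries other than WT vehicle 122 and KO vehicle 137 (colour scale ending at -2 and 2). KO vehicle 137 is the darkest column, and WT vehicle 122 is dark for Lamp3 but pale for Sftpb, Abca3 and Sftpd.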

How the data were processed

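Libraries were made from frozen mouse lung with the SMARTer Stranded Total RNA-Seq v2 Pico kit. According to the submitters' processing notes and the study's methods, the authors aligned reads with STAR 2.6 to mm10 and deposited estimated counts per gene from Partek Flow's expectation-maximization step. The strand setting and the annotation release are not given in the sources used here, and a count shared between overlapping genes can be split by that step. The deposited estimated counts were rounded to whole numbers for testing here. The 26946 genes that reached 20 counts summed over the 17 libraries were kept. edgeR 4.0.16 in R 4.3.3 fitted a quasi-likelihood model with TMM scaling and 1 coefficient per group over all 17 libraries, or genotype plus exposure for comparisons over groups. A call needed a Benjamini-Hochberg adjusted p under 0.2 and a fold over 2. These are the false discovery and fold limits that the study's results state for its exposure comparisons. The study also states a criterion on the unadjusted p, which was not used, and elsewhere a false discovery limit of 0.05, which was an alternative here. CPM values are TMM-scaled, and RPKM used the summed exon length in GENCODE M21 (96.4% of 31245 genes matched). DESeq2 1.42.0, other filters and scalings, sex and i5 covariates, and leaving out each library were alternatives, 33 in all. The script was tested on simulated data. Likeness used log2(CPM + 0.5), and 3 alternatives (likeness over 15 libraries, and the non-overlap counts without WT vehicle 122 or KO vehicle 137) were added after seeing the data. Likeness is a description with no test. Named pathway genes were those called in a list (up to 5) and the gene with the smallest p in each exposure comparison, besides Scd1 and the genes called when a single library was left out. The members and gene lists were chosen with earlier results of these data known. The labels give 1 animal per library, so p-values measure the spread between animals. A WT vehicle sample that the study set aside for RNA quality was not analysed here. Figures were drawn with matplotlib 3.10.9. The values of 1 gene are not reported here.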

Additional observations from a re-analysis of the deposited data

Results flagged for a closer look

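Dixon's test for a single outlying sample was applied to each member in the 5 WT, 6 KO and 6 KI libraries, 30 tests in all, of which chance alone gives about 5%. It marked 7 members, each for KO vehicle 137 as the lowest of the 6 KO libraries: Sftpc at 677 CPM, Abca3 at 314 CPM, Lamp3 at 64.3 CPM, Lpcat1 at 117 CPM, Slc34a2 at 444 CPM, Napsa at 17.97 CPM and Etv5 at 62.4 CPM. These 7 tests share 1 library, in which 61.3% of counts fell on protein-coding genes, and are not independent. The test was run on the members only, so no share of all genes stands beside the 7. Of the 10560 genes that averaged 10 CPM or more, 50.7% were lower in that library than in any of the other 15. WT vehicle 122 was marked for no member.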

How the results depend on the processing

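No member was called in any of 9 comparisons under the alternative settings run (33 for 5 comparisons, and 32 for the 4 over genotypes or exposures, where a fit of the groups compared alone was not run), with 1 exception: leaving out 1 library at a time in WT gave 0 to 2 members, the 2 being Lamp3 and Napsa without WT vehicle 107. All 10 members kept the sign of their PFOA value in KO under every setting run, while 9 changed sign under some setting in WT, 1 in KI, 2 over the 3 genotypes, and 7 or 8 in each of the other 5 comparisons. Over the settings the number of all genes called ran from 0 to 1672 in WT, 0 to 72 in KO, 0 to 5 in KI, 0 to 35 over the 3 genotypes, 0 to 178 and 0 to 350 for the differences of KO and KI from WT, and 258 to 1577, 179 to 751 and 2 to 11 for KO against WT, KI against WT and KI against KO. The cause of these changes was not tested. No paired analysis was possible because every animal has its own number and the groups share none. Depth limits single libraries of low genes such as Pgc, whose WT counts were all under 3.

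The log2 values that changed sign were as follows. With at least 20 counts in 1 library the values were, for KO against WT Abca3 0.0022. With the i5 index as a covariate the values were, for PFOA in WT Sftpd 0.012, Lpcat1 -0.10, Napsa -0.015 and Etv5 -0.034, and for KO against WT Sftpb 0.026, Sftpc -0.026 and Sftpd 0.011, and for KI against WT Sftpd 0.0088 and Lpcat1 -0.016, and for KI against KO Sftpd -0.0022, Abca3 0.0033 and Lamp3 0.056. With protein-coding genes only the values were, for KO against WT Sftpb 0.0081 and Abca3 0.017. With sex as a covariate the values were, for the effect in KI minus WT Lamp3 -0.23 and Lpcat1 -0.030, and for KO against WT Sftpa1 -0.11, Sftpc -0.064, Lpcat1 -0.00042 and Napsa -0.11, and for KI against WT Sftpb -0.027 and Lpcat1 -0.018, and for KI against KO Abca3 0.0025, Lamp3 0.13, Slc34a2 0.065 and Napsa 0.13. With upper-quartile factors the values were, for KO against WT Sftpb 0.0079 and Abca3 0.017, and for KI against KO Sftpb -0.0058 and Sftpc -0.012. Without WT vehicle 122 and KO vehicle 137 the values were, for PFOA in WT Sftpa1 -0.37, Sftpc -0.53, Lamp3 -0.58, Lpcat1 -0.44, Slc34a2 -0.37, Napsa -0.55 and Etv5 -0.39, and for PFOA in KI Sftpc -0.0027, and for PFOA over the 3 genotypes Sftpc -0.12 and Lpcat1 -0.0028, and for the effect in KI minus WT Sftpc 0.53, and for KO against WT Sftpb 0.10 and Abca3 0.070, and for KI against WT Sftpc -0.094, Lpcat1 -0.12, Napsa -0.12 and Etv5 -0.031, and for KI against KO Sftpa1 -0.045, Sftpb -0.10, Sftpc -0.22 and Sftpd -0.064. Sftpc in KI, at 0.0012, became -0.0037 under both runs of DESeq2 and with RLE factors, -0.00078 with filterByExpr, -0.00046 with at least 20 counts in 1 library, -0.00058 in a fit of the groups compared and -0.010 with protein-coding genes alone.

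Leaving out 1 library at a time gave these lowest and highest log2 values where a sign changed. For KI against WT, Abca3 -0.10 to 0.050, Etv5 -0.017 to 0.30, Lpcat1 -0.10 to 0.28, Napsa -0.10 to 0.53, Sftpb -0.048 to 0.13, Sftpc -0.064 to 0.49 and Sftpd -0.14 to 0.091. For KO against WT, Abca3 -0.058 to 0.092, Napsa -0.014 to 0.59, Sftpa1 -0.036 to 0.31, Sftpb -0.082 to 0.11, Sftpc -0.056 to 0.46 and Sftpd -0.20 to 0.029. For PFOA in WT, Abca3 -0.26 to 0.060, Etv5 -0.39 to 0.62, Lamp3 -0.57 to 1.89, Lpcat1 -0.44 to 0.79, Napsa -0.54 to 1.54, Sftpa1 -0.37 to 0.76, Sftpc -0.53 to 1.37, Sftpd -0.30 to 0.16 and Slc34a2 -0.37 to 1.07. For the effect in KI minus WT, Etv5 -0.31 to 0.70, Lamp3 -1.63 to 0.83, Lpcat1 -0.67 to 0.56, Napsa -1.07 to 1.01, Sftpa1 -0.46 to 0.67, Sftpc -1.37 to 0.53 and Slc34a2 -0.66 to 0.79. For the effect in KO minus WT, Etv5 -0.31 to 0.70, Lamp3 -1.26 to 1.199, Lpcat1 -0.37 to 0.86, Napsa -0.87 to 1.21, Sftpa1 -0.27 to 0.87, Sftpc -0.93 to 0.98 and Slc34a2 -0.64 to 0.81. For KI against KO, Lamp3 -0.29 to 0.035, Napsa -0.26 to 0.014, Sftpa1 -0.040 to 0.24, Sftpb -0.10 to 0.085, Sftpc -0.21 to 0.12, Sftpd -0.066 to 0.15 and Slc34a2 -0.25 to 0.019. For PFOA in KI, Sftpc -0.16 to 0.19.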
